A study of Mus musculus with 2 samples.

Results

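The 10 genes described here handle zinc in the mouse hippocampus. They are the metallothionein genes Mt1, Mt2 and Mt3, the metal-sensing transcription factor gene Mtf1, the transporter genes Slc30a1, Slc30a3, Slc30a4 and Slc30a10, and the transporter genes Slc39a10 and Slc39a12. They were chosen by symbol, each matched 1 gene, and together they are 10 of 55450 genes in the transcript tables that carry estimated counts. Total RNA came from the hippocampus (labelled as a layer of hippocampus) of female B6CASTF1/J mice, a cross that carries 1 C57BL/6 and 1 CAST genome, at 25 days of age. There is a single group, for which the labels name no treatment, with replicates 1 and 2. The input was 300 ng of RNA per library, and ERCC spike-ins were included. Each replicate has its own biosample in the labels but both point to 1 donor entry, so n = 2 may not cover variation between animals.

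Metallothioneins are small cytosolic proteins whose many cysteines hold zinc and copper, and they buffer the free metal in a cell. Members of the Slc30 family (ZnT proteins) move zinc out of the cytosol, across the plasma membrane or into vesicles, and members of the Slc39 family (ZIP proteins) move it in. MTF-1, the product of Mtf1, binds metal response elements in DNA when zinc rises and turns on genes such as Mt1, Mt2 and Slc30a1. In the hippocampus, ZnT3, the product of Slc30a3, fills the synaptic vesicles of glutamatergic terminals with zinc, above all in the mossy fibres of dentate granule cells.

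The coding sequences of the 3 metallothionein genes are shown because their cysteine codons are what the family is named for, and because genes this alike could exchange reads. They are GENCODE M21 sequences on the plus strand of mm10 (GRCm38), spliced from 3 coding exons each, with in-frame cysteine codons (tgc or tgt) in capitals. The coding parts span chr8:94179311-94180193 for Mt1-201, chr8:94172848-94173427 for Mt2-201 and chr8:94152800-94154010 for Mt3-201.
Mt1-201: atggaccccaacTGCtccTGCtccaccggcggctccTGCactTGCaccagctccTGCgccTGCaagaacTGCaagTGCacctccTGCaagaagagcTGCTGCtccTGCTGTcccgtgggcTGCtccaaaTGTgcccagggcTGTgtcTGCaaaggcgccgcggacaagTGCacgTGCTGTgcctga
Mt2-201: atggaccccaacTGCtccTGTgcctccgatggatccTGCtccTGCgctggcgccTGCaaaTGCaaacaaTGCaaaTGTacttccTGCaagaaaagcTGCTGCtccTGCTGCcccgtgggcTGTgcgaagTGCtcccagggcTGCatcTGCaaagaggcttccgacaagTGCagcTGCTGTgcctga
Mt3-201: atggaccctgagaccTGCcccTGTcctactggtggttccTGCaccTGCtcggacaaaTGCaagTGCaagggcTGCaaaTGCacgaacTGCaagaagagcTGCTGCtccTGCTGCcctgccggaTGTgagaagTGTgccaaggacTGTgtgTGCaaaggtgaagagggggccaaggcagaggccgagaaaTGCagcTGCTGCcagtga

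Each of the 3 sequences held 20 cysteine codons, 16 of them tgc and 4 tgt. These were 32.8% of the 61 codons of Mt1 and of Mt2, and 29.4% of the 68 codons of Mt3. Mt1 and Mt2 were identical at 148 of 186 aligned bases (79.6%) with no gap, and their longest identical run was 20 bases. Mt3 was 73.7% identical to Mt1 and 75.3% identical to Mt2 over 186 aligned bases, with 21 bases of its own in gaps. The longest run that Mt3 shared with Mt1 was 27 bases, and with Mt2 20 bases. Reads were nevertheless placed on single genes. The RSEM-format gene tables give each gene a posterior SD of its count, which is above 0 where reads could be placed on another gene as well. That SD was 0 in both libraries for 9 of the 10 genes, all 3 metallothioneins included, and for Slc39a10 it was 0.11 counts in replicate 1 and 0 in replicate 2.

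Sites that match the core of the metal response element are shown for the metallothionein genes and Slc30a1. The letters searched were TGCACNC and TGCGCNC on both strands, in RefSeq windows on GRCm38.p6 that run from 250 bases before to 50 after each annotated start. All 10 genes matched this table, with 12 windows, since Slc30a3 and Slc39a10 have a pair of starts each. Sequences are on the plus strand, which is the strand of these genes, and capitals mark the core match.
Mt1 at chr8:94179056-94179082: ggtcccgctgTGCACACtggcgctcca
Mt1 at chr8:94179081-94179107: cagggagctcTGCACTCcgcccgaaaa
Mt1 at chr8:94179099-94179125: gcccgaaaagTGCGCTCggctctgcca
Mt2 at chr8:94172385-94172411: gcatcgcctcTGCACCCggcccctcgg
Mt2 at chr8:94172480-94172506: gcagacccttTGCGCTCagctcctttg
Mt2 at chr8:94172558-94172584: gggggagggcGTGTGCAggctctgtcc
Mt2 at chr8:94172612-94172638: aattcgggtcGTGCGCAggcccagggg
Mt3 at chr8:94152624-94152650: gggacagcagTGCACACacacggagag
Slc30a1 at chr1:191906728-191906754: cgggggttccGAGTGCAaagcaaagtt
Slc30a1 at chr1:191906801-191906827: cctccgggccGAGCGCAgtcgccgcgg

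Mt2 had 4 matches, of which the last 2 above lie on the other strand, and Mt1 had 3, all on its own strand. Of all 32851 windows of this length, 25.7% held at least 1 match, 7.11% at least 2, 1.97% at least 3 and 0.517% at least 4. Mt3 had 1 match, 27 bases after its start, and Slc30a1 had 2, both on the other strand. Slc30a4 had 3 matches, all on the other strand, and Slc30a10 had 3, of which a pair overlap on opposite strands 233 and 232 bases upstream. The windows of Mtf1, Slc39a10 and Slc39a12 held none. The leading transcripts Slc39a10-201 and Mtf1-202 start outside these windows, at chr1:46854046 and chr4:124802104, so the sequence around those starts was not fully searched. Mt2-201 starts at chr8:94172664, downstream of the RefSeq start at 94172618 and close to the window end at 94172667. The sequence after the start of Mt2-201 was thus also not fully searched. None of the annotated Slc39a10 transcripts starts inside a window of that gene. Slc30a3 had 1 match, in the window of its upstream start at chr5:31108195-31108494, and none in the window of its downstream start at chr5:31093478-31093777. The downstream window is the one near the start of Slc30a3-201, the leading transcript of the gene in both quantifications. Transcripts from the upstream start had no counts in the RSEM-format tables and some in the second (given below). In GENCODE M21 the downstream pair of Mt1 sites lies in the 5′ UTR of Mt1-201, the Mt3 site in that of Mt3-201 and the downstream Slc30a1 site in that of Slc30a1-201. The other sites printed lie outside exons. Mt1-203 and Mt1-202 start downstream of all 3 Mt1 sites, at 94179211 and 94179241, beyond the end of the searched window at 94179138. These matches are letters in windows, and no binding was measured here.

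**Figure D1:**
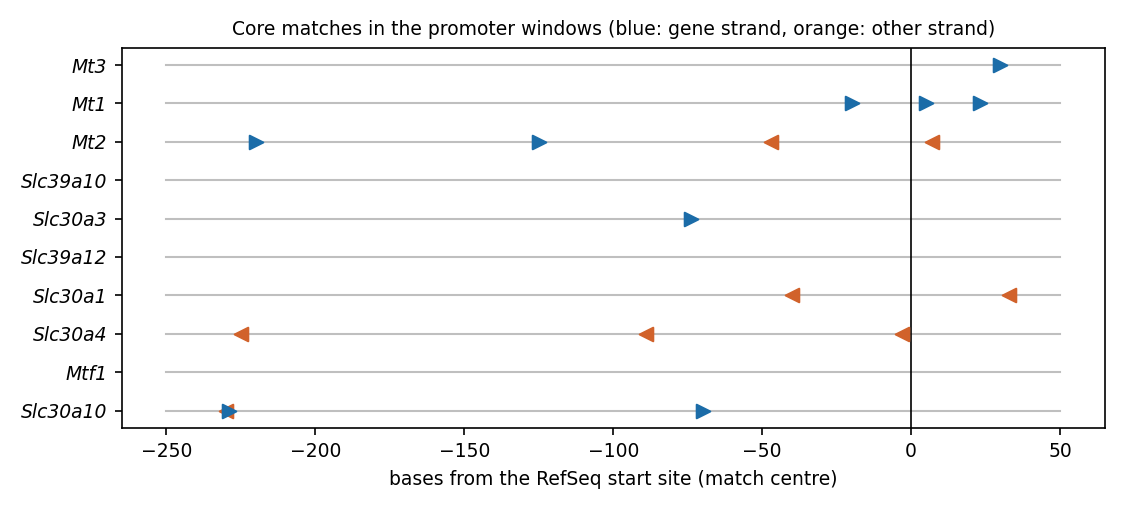
Positions of matches to TGCACNC or TGCGCNC in the RefSeq promoter windows of the 10 genes, in bases from the annotated start (vertical line), with the direction of each triangle and its colour giving the strand. Mt2 has 4 matches, Mt1, Slc30a4 and Slc30a10 have 3 each, and Mtf1, Slc39a10 and Slc39a12 have none.

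The gene tables held 34919989 expected counts in replicate 1 and 41206890 in replicate 2, and the 10 genes took 22073 and 28922 of these, between 607 and 6769 counts per gene and library. Levels below are TPM as deposited, a share of all transcripts in a library that divides counts by effective length, with mean ± SD over the 2 libraries. Markers of hippocampal fields were present in both libraries. None of the 6 dentate granule cell, 5 CA3 and 5 CA1 markers was under 3 TPM in either, with sums of 194 and 193, 193 and 177, and 259 and 251 TPM in replicates 1 and 2. Choroid plexus markers, from tissue next to the hippocampus, summed to 28.2 and 60.9 TPM. Parental alleles were not separated, and whether reads of the CAST genome were lost in mapping to mm10 was not examined.

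The metallothioneins were by far the most abundant of the 10. Mt3 (ENSMUSG00000031760.9, chr8:94152607-94154146), the brain-enriched metallothionein known as growth inhibitory factor, had 488 and 519 TPM in replicates 1 and 2, or 503 ± 21.4. It ranked 56 by mean TPM among 22015 nuclear protein-coding genes. Mt1 (ENSMUSG00000031765.8, chr8:94179082-94180327), a widely expressed and inducible metallothionein, was at 285 and 326 TPM, or 306 ± 29.5, at rank 129. Mt2 (ENSMUSG00000031762.7, chr8:94172664-94173568), its close relative, was at 229.8 and 285 TPM, or 257 ± 38.8, at rank 187. Mt3 stood above the other two in both libraries, while the ranges of Mt1 and Mt2 met: Mt1 in replicate 1 was at 284.72 TPM and Mt2 in replicate 2 at 284.73.

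Within each library Mt1 was above Mt2, by 1.24 times in replicate 1 and 1.15 times in replicate 2. The 3 genes summed to 1003 and 1130 TPM. Mt3 held 48.7% and 45.9% of that sum, Mt1 28.4% and 28.9%, and Mt2 22.9% and 25.2%. They lie side by side on chromosome 8 in the order Mt4, Mt3, Mt2, Mt1, with 13575, 18517 and 5513 bases between neighbours. Mt4, the metallothionein of stratified epithelia, had 0 counts in both libraries, which allows a share of up to 8.59e-06% of counts in replicate 1 and 7.28e-06% in replicate 2. These limits, and the counting intervals below, cover counting error only.

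Mtf1 (ENSMUSG00000028890.13, chr4:124802104-124849800), which encodes the metal-sensing factor, was at 11.9 and 10.7 TPM, or 11.3 ± 0.813. The last part of the gene overlaps 721 bases of 1110065P20Rik on the other strand, which was at 37.3 and 42.5 TPM. The libraries are stranded, per the labels, but whether the counting used strand is not given in the sources used here, so Mtf1 could include such reads.

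Of the 4 Slc30a genes, the vesicular transporter was highest. Slc30a3 (ENSMUSG00000029151.14, chr5:31086106-31108237), encoding ZnT3, was at 35.5 and 32.1 TPM, or 33.8 ± 2.44. That was 5.48% and 5.09% of the level of Slc17a7 in the same libraries. Slc17a7 encodes VGLUT1, the glutamate transporter of the vesicles that ZnT3 serves, and was at 648 and 630.1 TPM. Slc30a1 (ENSMUSG00000037434.7, chr1:191906767-191913247), the zinc exporter of the plasma membrane, was at 13.5 and 14.4 TPM, or 13.97 ± 0.608. Slc30a4 (ENSMUSG00000005802.12, chr2:122681233-122702663), which moves zinc into endosomes and secretory vesicles, was at 10.95 and 11.93 TPM, or 11.4 ± 0.693. Slc30a10 (ENSMUSG00000026614.6, chr1:185454848-185468762), known above all as a manganese exporter, was lowest of the 10 at 4.4 and 3.85 TPM, or 4.12 ± 0.389. Genes on the other strand that overlap these 4 were at 1.37 TPM or less in both libraries.

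Both Slc39a genes were above most of the Slc30a members. Slc39a10 (ENSMUSG00000025986.6, chr1:46807544-46892852), encoding the zinc importer ZIP10, was at 40.8 and 39.5 TPM, or 40.2 ± 0.926. Slc39a12 (ENSMUSG00000036949.16, chr2:14388316-14494977), encoding the brain-enriched importer ZIP12, was at 17.9 and 18.8 TPM, or 18.3 ± 0.615. Gm28151 and Gm37393 lie within Slc39a10 on the same strand and were at 2.20 and 2.42 TPM, and 0.25 and 0.06 TPM, in replicates 1 and 2.

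All 10 genes reached 1 TPM in both libraries. The order by mean TPM was Mt3, Mt1, Mt2, Slc39a10, Slc30a3, Slc39a12, Slc30a1, Slc30a4, Mtf1 and Slc30a10. Of the 9 pairs of neighbours, the ranges over the libraries overlapped for Mt1 with Mt2 and for Slc30a4 with Mtf1, and did not overlap for the other 7. The widest step was between Mt2 and Slc39a10, with means 6.41 times apart. The narrowest step with separate ranges was between Slc39a10, at 39.5 TPM or more, and Slc30a3, at 35.5 or less. These separate ranges hold for the RSEM-format tables. The ranges overlapped in the second quantification, at 57.7 and 62.7 TPM for Slc39a10 and 59.8 and 55.1 for Slc30a3. Slc39a12 lay among them there, at 59.5 and 58.2 TPM.

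The second deposited quantification, made from reads in the kallisto format, gave other levels for the short genes. To set the tables side by side, TPM was rescaled in each so that nuclear protein-coding genes sum to the same total. On that scale Mt3 was at 1126 and 1235 in the RSEM-format table and at 1850.1 and 2035 in the second, 1.64 and 1.65 times as high. Mt1 was 1.42 and 1.47 times and Mt2 1.23 and 1.29 times as high in the second table, whereas the median tested protein-coding gene was at 0.948 and 0.936 times. The effective length of Mt3-201, of 536 bases, was 437 bases in the RSEM-format table and 197 in the second table for replicate 1. Slc39a12 differed most, at 1.96 and 1.76 times, and Slc30a1, Slc30a3, Slc30a4 and Slc30a10 lay between 0.884 and 0.994 times in both libraries. The order of the metallothioneins was kept, with Mt3 holding 53.9% and 50.2% of their summed TPM in the second table.

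**Figure D2:**
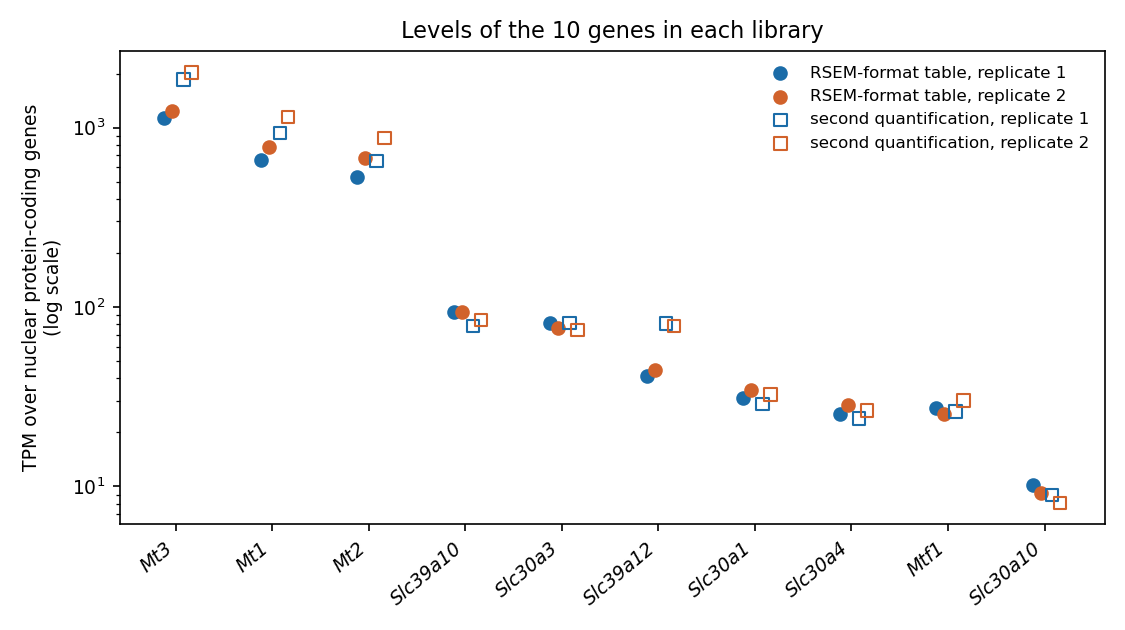
Level of each gene in each library as TPM over nuclear protein-coding genes (log axis), with filled circles for the RSEM-format table and open squares for the second quantification, blue for replicate 1 and orange for replicate 2. The 3 metallothioneins sit above the other 7 genes in every column, and Slc39a12 is the gene whose squares and circles lie farthest apart.

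The rest of the zinc genes put these levels in context. Of 23 other genes listed for zinc transport, vesicular zinc or zinc sensing, 17 reached 1 TPM in both libraries and 6 were under 1 TPM in both. In the Slc30a family of 10 genes, Slc30a9, known for mitochondrial zinc, led at 80.7 and 70.5 TPM. Slc30a3 came next in both libraries, with 19.6% and 19.5% of the family's summed TPM of 181 and 164. Slc30a5 and Slc30a7, which supply zinc to the secretory pathway, were at 16.7 and 16.4 TPM and at 11.6 and 8.59 TPM. Slc30a4 lay above Slc30a7 in replicate 2 and below it in replicate 1. In the second quantification Slc30a4 lay above Slc30a7 in both, at 17.6 and 19.6 TPM against 6.49 and 5.47.

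In the Slc39a family of 14 genes, Slc39a10 came first in both libraries on deposited TPM of the RSEM-format tables, with 17.6% of the summed TPM of 232 and 224. Its nearest neighbour was Slc39a7, which releases zinc from the endoplasmic reticulum, at 38.8 and 38.3 TPM, a range that did not overlap that of Slc39a10. That range leaves out read placement: the posterior SD of the Slc39a7 count was 26.5 of 1782 counts in replicate 1 and 23.3 of 2200 in replicate 2. Slc39a3, Slc39a6 and Slc39a1 followed at 30.7 ± 0.417, 22.2 ± 0.191 and 20.2 ± 0.163 TPM. Slc39a12 held 7.70% and 8.38% of the family. It lay next to Slc39a14, an importer of zinc, iron and manganese at 18.2 and 17.2 TPM, with overlapping ranges. This order did not hold in the second quantification. There Slc39a12 led in replicate 1 with 59.5 TPM against 57.7 for Slc39a10, and Slc39a10 led in replicate 2 with 62.7 against 58.2. Slc39a14 was at 35.3 and 37.0 TPM in that table, below both. On deposited TPM Slc39a9 was at 16.1 ± 1.29 TPM and Slc39a13 at 11.0 ± 2.15.

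The 6 genes under 1 TPM in both libraries have their known sites mostly elsewhere. They were Slc39a4 and Slc39a5 (intestinal and pancreatic zinc), Slc30a2 (mammary gland), Slc30a8 (insulin granules), Mt4 and Gpr39, the zinc-sensing receptor. Of these Slc39a4 was highest, at 0.14 and 0.15 TPM from 5 and 11 counts. Gpr39 had 4 and 11 counts, Slc30a2 had 4 and 0, Slc39a5 had 1 in each, and Slc30a8 had 0 in both. Ap3d1, a subunit of the AP-3 adaptor that sorts ZnT3 to synaptic vesicles, was at 57.6 and 52.1 TPM.

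**Figure D3:**
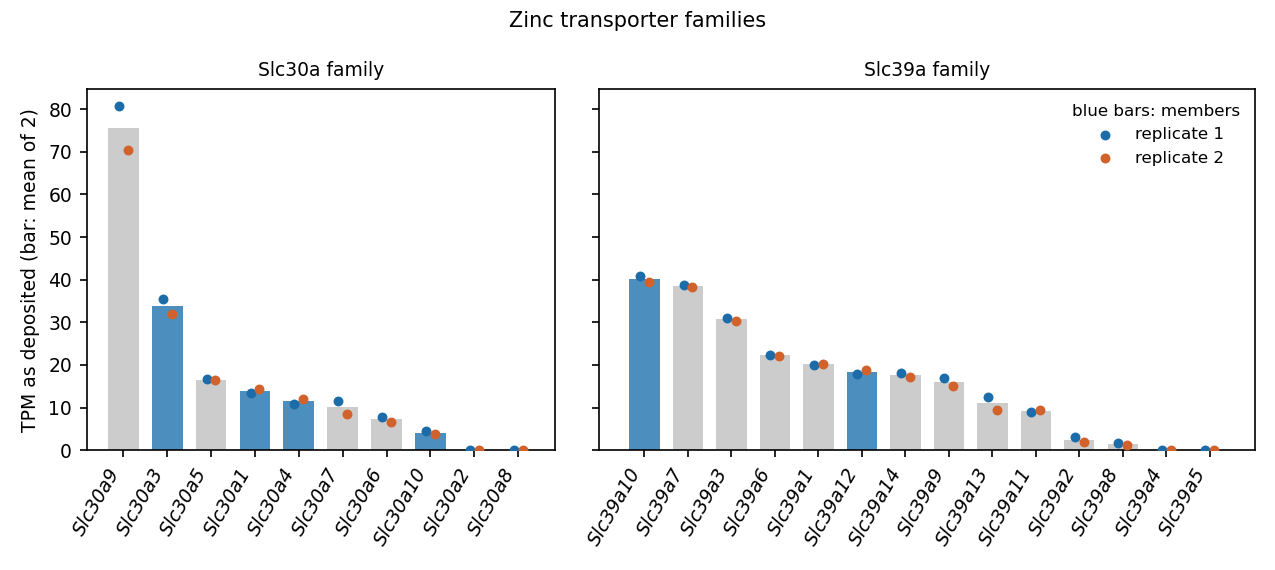
Deposited TPM of all 10 Slc30a genes (left) and all 14 Slc39a genes (right), as the mean of both libraries (bars, blue for the genes described here) with replicate 1 and replicate 2 as points. Slc30a3 is next after Slc30a9 on the left, and Slc39a10 leads on the right just above Slc39a7.

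The 10 genes have 31 annotated transcripts. In the RSEM-format tables the leading transcript took more than 90% of TPM in 6 genes and more than 50% in 9, in the mean of both libraries. In the second table the same transcript took more than 90% in 4 genes, Mt1, Mt2, Mt3 and Slc30a10, and more than 50% in 8. Mt1-201 held 98.0% and 98.7% of Mt1 in replicates 1 and 2, and Mt3-201 96.5% and 97.0% of Mt3. Slc30a3-201 held 97.2% and 97.5%, and 3 of the 6 transcripts of Slc30a3 had no counts in these tables. In the second table Slc30a3-201 held 90.1% and 87.3%. There Slc30a3-206, which starts upstream, had 27.8 and 88.9 estimated counts, and Slc30a3-203, which also starts upstream, had 0.18 and 8.34. Slc30a4-201 held 94.8% and 100%, and Slc30a10 has a single transcript. Slc30a1-201 held 81.4% and 82.9%, beside Slc30a1-202, and Slc39a10-201 held 79.3% and 83.0%.

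Mt2, Slc39a12 and Mtf1 were divided, or were divided in one of the quantifications. Mt2-201 held 63.3% and 53.1% and Mt2-202 36.7% and 46.9% in the RSEM-format tables, with a posterior SD of 54.9 and 60.6 counts for the division. Mt2-202 starts at position 94172860 of chromosome 8, which lies inside the coding part of Mt2-201 that begins at 94172848. In the second table all estimated counts of Mt2 were on Mt2-201, at 1542 and 2524, and Mt2-202 had 0. The gene had 2028 and 3031 expected counts in the RSEM-format tables, so the second table gave Mt2 fewer counts. Slc39a12-201, of 2675 bases, held 95.91% and 95.01% in the RSEM-format tables but 39.05% and 45.1% in the second. There Slc39a12-203, of 536 bases, led with 59.7% and 54.3%, from 127 and 138 estimated counts against 7.69 and 8.45 expected counts in the RSEM-format tables. So the leading transcript of Slc39a12 depended on the quantification, as its level did.

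Mtf1 had no leader over 50% in the RSEM-format tables. Mtf1-202, a coding transcript of 7554 bases, held 42.3% and 40.5%. Mtf1-201, a coding transcript of 7631 bases, held 11.6% and 14.8%, from 249 and 359 counts. The posterior SD of the count was 119 and 124 for Mtf1-202 and 117 and 122 for Mtf1-201. The division between these long transcripts was therefore not firm. Mtf1-204, a retained-intron transcript of 781 bases, held 42.8% and 33.4%. In counts Mtf1-202 had 900.3 and 972 and Mtf1-204 83.4 and 73.2, since TPM divides by length. In the second table Mtf1-202 held 52.4% and 41.4% and Mtf1-201 1.28% and 1.62%. Mtf1-203 held 14.5% in replicate 1 and 40.5% in replicate 2 there, from 14.7 and 58.1 estimated counts.

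**Figure D4:**
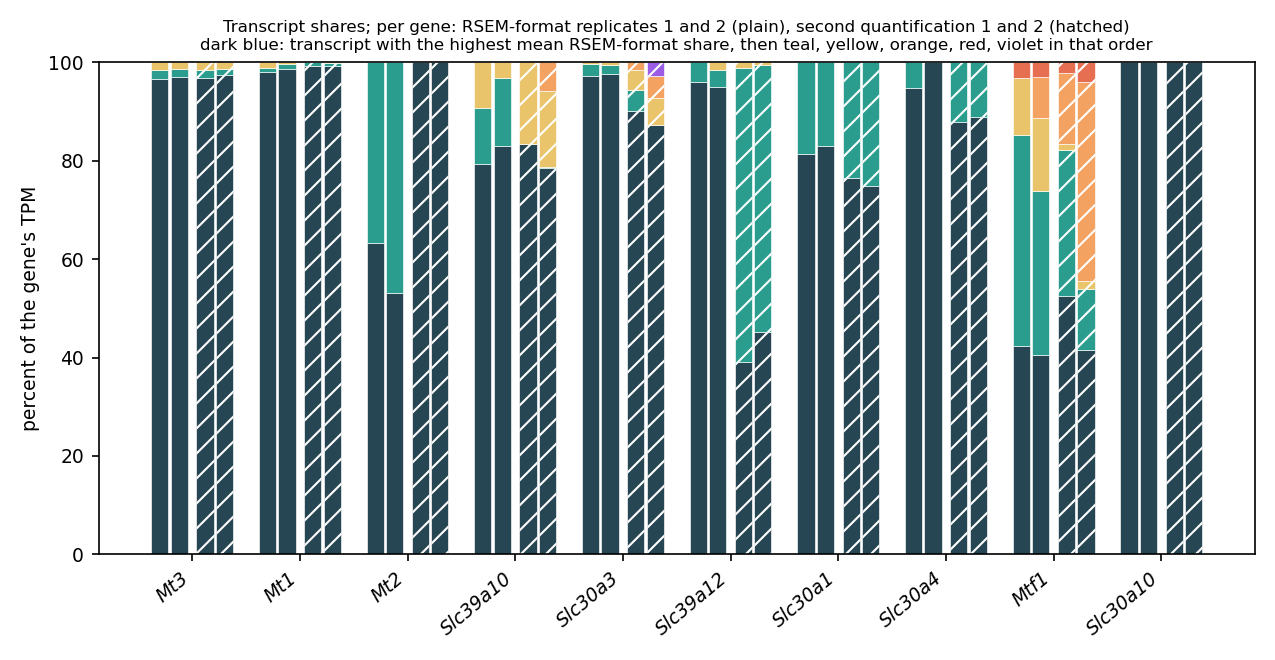
Percent of each gene's TPM held by its transcripts, with 4 bars per gene for replicates 1 and 2 of the RSEM-format table (plain) and of the second quantification (hatched), and colours in order of the mean RSEM-format share. The bars of Mt2 and Slc39a12 change between plain and hatched, while those of Mt1, Mt3 and Slc30a10 do not.

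The 2 libraries were compared with each other, as there is no second group. With 1 library against 1 a difference has no replicate check, so no p-value is given. In tissue RNA fewer cells of a type and less RNA per cell cannot be told apart. Mt2 differed most, with a TPM ratio of replicate 2 to replicate 1 of 1.24 and a 95% counting interval of 1.17 to 1.31 (exact Clopper-Pearson). This ratio also carries the effective length of Mt2, 367 bases in replicate 1 and 354 in replicate 2. The shorter Mt2-202 held 36.7% and 46.9% of Mt2 there, a division that the second quantification did not make. Mt1 followed at 1.15 (1.095 to 1.2004), and Mt3 was at 1.06 (1.02 to 1.10). Slc30a4 was at 1.09 (1.02 to 1.17), and the intervals of Slc30a1 at 1.06, Slc39a12 at 1.05 and Slc39a10 at 0.968 included 1. Lower in replicate 2 on deposited TPM were Slc30a3 at 0.903 (0.845 to 0.965), Mtf1 at 0.903 (0.836 to 0.975) and Slc30a10 at 0.875 (0.783 to 0.978).

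On deposited TPM 6 of the 10 were higher in replicate 2 and 4 lower, against 34.7% and 64.9% of all genes tested. At 1.2-fold, 1 of the 10 was higher in replicate 2, against 3.7% of the 12962 genes tested, those whose expected counts in the 2 libraries summed to 200 or more. None was 1.2-fold lower, against 18.1% of all genes. The split over all genes depended on the scale, with 6.90% higher and 7.12% lower at 1.2-fold on TMM-scaled counts and 1.37% higher and 29.3% lower on spike-in scaling. None was 2-fold higher or lower, against 0.1% and 0.725%. The median log2 ratio of the 10 was 0.07 and that of all tested genes -0.07, both on log2(TPM + 1). With a single gene past 1.2-fold, the count says nothing particular to these genes.

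The scale decided which genes lay above 1. The median log2 ratio over all tested genes was -0.07 on deposited TPM, 0.04 on TMM-scaled counts, -0.17 on spike-in scaling and -0.03 in the second quantification. Under each of the 6 scalings tried, Mt1, Mt2, Mt3, Slc30a1, Slc30a4, Slc39a10 and Slc39a12 lay above that median, and Slc30a3 and Slc30a10 below it. Mtf1 lay below it in 5 and above it in the second quantification, where its log2 ratio was 0.21 against -0.15 on deposited TPM. TMM, DESeq2 and spike-in scaling each multiply the same counts by 1 constant per library, so they could not differ relative to the median. The same holds between deposited TPM and TPM over nuclear protein-coding genes, so the 6 are not independent checks. Without that reference the signs of Mt3, Slc39a10 and Slc39a12 also changed. Mt3 had a log2 ratio of 0.09 on deposited TPM and -0.02 on spike-in scaling, Slc39a10 -0.05 and, on TMM-scaled counts, 0.08, and Slc39a12 0.07 and, in the second quantification, -0.03.

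Marker lists of cell types that could hold these RNAs are given in the order replicate 1, replicate 2. The 10 astrocyte markers, from cells known for Mt1, Mt2 and Mt3, summed to 2437 and 2411 TPM, with 6 higher and 4 lower in replicate 2 and single genes between 17.97 and 839 TPM. The 8 choroid plexus markers summed to 28.2 and 60.9 TPM with 6 higher and 2 lower, and Ttr gave 23.5 and 55.1 of those sums. Folr1 was at 0 and 0.76 TPM, and 6 of the 8 were under 1 TPM in both libraries. The 8 glucocorticoid-responsive genes, listed without metallothioneins, summed to 230.2 and 235 TPM with 3 higher and 5 lower. Tsc22d3, of these, had 43.4 and 55.8 TPM, and Zbtb16 had 50.6 and 41.9. The 5 glutamatergic neuron markers, from cells known for Slc30a3, had sums of 2484 and 2166 TPM and single genes between 6.05 and 1577. On deposited TPM and on spike-in scaling 5 of 5 were lower, where 64.9% of all genes were lower on deposited TPM. On the other 4 scalings 4 of 5 were lower, since Slc17a7 changed sign, with a log2 ratio of -0.04 on deposited TPM and 0.07 on TMM-scaled counts. On deposited TPM, 3 dentate granule cell markers were higher in replicate 2 and 3 lower. For CA3 1 was higher and 4 lower, and for CA1 2 were higher and 3 lower. The sums of these field lists had ratios of 0.995, 0.920 and 0.971, against 0.872 for the glutamatergic list. The 6 interneuron markers summed to 398 and 425 TPM with 5 higher, the 6 oligodendrocyte markers to 2317 and 2358 with 5 higher, and the 5 red blood cell markers to 609 and 676 with 5 higher. Sums for oligodendrocyte precursors (131 and 133), microglia (121 and 119), endothelium (108 and 102), mural cells (55.1 and 54.8) and ependyma (8.15 and 9.05 TPM) differed by less than 1.2-fold. The 5 meningeal fibroblast markers summed to 61.95 and 67.1 TPM with 2 higher and 3 lower. Of these Dcn had 14.3 and 24.8 TPM, a ratio of 1.74 (1.57 to 1.92), and Igf2 had 30.4 and 25.6. The part of these lists in the differences of Mt1, Mt2 and Slc30a3 was not tested.

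Among the other zinc genes, 5 of the 17 with at least 200 counts were past 1.2-fold on deposited TPM, 1 higher and 4 lower in replicate 2, where 3.7% of all genes were higher and 18.1% lower. On TMM-scaled counts 2 were higher and 2 lower, since Slc39a13 and Slc30a7 were no longer past it and Slc39a11 was. These genes are named because they passed, after their values were seen. Tmem163, a vesicular zinc protein, had 6.05 TPM in replicate 1 and 7.56 in replicate 2, which is 1.25 times as much (1.07 to 1.45). Slc39a2 was at 3.05 and 1.96 TPM, Slc39a8 at 1.59 and 1.19, Slc39a13 at 12.5 and 9.47 and Slc30a7 at 11.6 and 8.59. For Slc39a13 and Slc30a7 the TPM ratios were 0.757 and 0.742, while their counts were 446 and 474, and 877 and 930, at a depth 1.18 times as great in replicate 2.

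**Figure D5:**
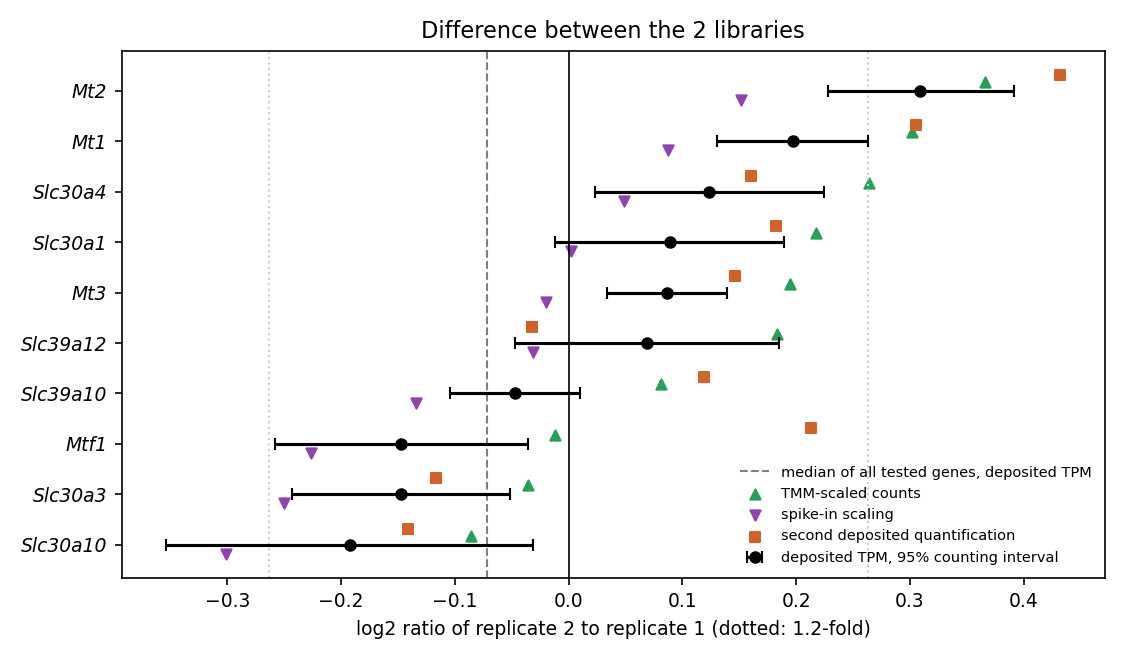
Log2 ratio of replicate 2 to replicate 1 for each gene on deposited TPM (black, bars give the 95% counting interval), TMM-scaled counts, spike-in scaling and the second quantification, with the median of all tested genes dashed and 1.2-fold dotted. Mt2 and Mt1 lie to the right at 0.31 and 0.20 on deposited TPM, and the signs of Mt3, Mtf1, Slc39a10 and Slc39a12 depend on the scale.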

How the data were processed

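Stranded total RNA libraries were quantified by the authors against mm10 and the GENCODE M21 annotation, per the notes deposited with the files. The aligner is not given in the sources used here. The deposited gene and transcript tables are in RSEM format, made from transcriptome alignments. Their columns include the expected count and TPM, and in the transcript tables the authors also deposited each transcript's percent of its gene's TPM. The second deposited transcript tables hold estimated counts and TPM in kallisto format, made from reads and summed here per gene. All 55536 gene identifiers matched GENCODE M21. TPM was used as deposited. Library ratios were limited to genes whose expected counts summed to 200 or more. The floor was 3 counts, and list medians used a pseudocount of 1 TPM. Clopper-Pearson 95% intervals of the counts were scaled to the TPM ratio. Alternatives were the second quantification, TPM over nuclear protein-coding genes, TMM (edgeR 4.0.16), DESeq2 1.42.0 size factors, both on rounded expected counts, spike-in scaling (96 ERCC spike-ins), other filters, pseudocounts and detection limits, and each replicate alone. Promoter windows are RefSeq's on GRCm38.p6, and coding sequences are GENCODE's, aligned with Biopython 1.88. The ratio code was tested on simulated data. Intervals came from scipy 1.17.1 and figures from matplotlib 3.10.9, under Python 3.11.15, with numpy 2.4.6, pandas 2.3.3 and R 4.3.3.

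The genes and lists were chosen with earlier results of these data known. All 10 genes are named. Of the other zinc genes those with a mean of at least 10 TPM or under 1 TPM in both libraries are named, and of each marker list its sum and at most 2 genes of highest mean, with exceptions stated in the text. No gene is named for a pattern like these, since 2 libraries give none to compare.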

Additional observations from a re-analysis of the deposited data

How the results depend on the processing

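The number of the 10 genes at least 1.2-fold higher in replicate 2 was 1 on deposited TPM, 3 on TMM-scaled counts and 3 with DESeq2 size factors (Mt1, Mt2 and Slc30a4), 2 in the second quantification (Mt1 and Mt2) and 0 on spike-in scaling. The shares of all genes at least 1.2-fold higher in the same settings were 3.7%, 6.90%, 6.96%, 6.55% and 1.37%. On spike-in scaling 1 gene, Slc30a10, was at least 1.2-fold lower, where 29.3% of all genes were, against 0 of the 10 and 18.1% on deposited TPM. The median log2 ratio of the 10 was 0.07 on deposited TPM, 0.19 on TMM-scaled counts, 0.19 with DESeq2 size factors and -0.026 on spike-in scaling, where its sign changed with the scale of all genes. All 10 genes were at 1 TPM or more under each quantification and scaling tried and in each library alone, and 9 were at 5 TPM or more in both. Of the 45 pairs of genes, the order of mean levels was the same for 43 in the second quantification. With each replicate alone the order of levels was the same for 44 to 45. The leading transcript was the same for 9 in the second quantification, with Slc39a12 the exception, and for 9 to 10 with each replicate alone, with Mtf1 the exception in replicate 1. Levels of single genes moved beyond the SD of the libraries for 20 of 40 alternatives, all of them the second quantification or the rescaled TPM, both of which were higher than deposited TPM for all 10 genes. The share of all genes past 1.2-fold was 7.79% higher and 28.5% lower with at least 20 counts. The counts of other zinc genes and glutamatergic markers under other scalings were added after seeing the data. Between 0 and 2 of the 17 zinc genes were at least 1.2-fold higher, and between 2 and 4 lower. No paired analysis was possible because there is a single group. The lowest of the 10 genes had 607 counts, so depth limits Mt4, Slc30a8 and the other genes near 0 and not the levels of the 10.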
